A study of Homo sapiens with 12 samples.

Results

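Expression of 10 members of the BCL2 family was followed through the 4 conditions of the series: the BH3-only genes BCL2L11, BMF, BBC3, PMAIP1 and BID, the effector genes BAX and BAK1, and the pro-survival genes BCL2, BCL2L1 and MCL1. They were chosen by name, as the 10 rows of the count table that carry these symbols among 59050 gene names. All 10 passed the filter on low counts, which left 16208 genes in the test. The cells were MyLa (MYLA), a human line from cutaneous T cell lymphoma (CTCL), and bulk RNA was sequenced from 12 libraries, 3 in each of 4 groups. The groups were romidepsin at 3.2 nM together with afatinib dimaleate at 5.7 uM (the combination), romidepsin at 3.2 nM alone, afatinib dimaleate at 5.7 uM alone, and DMSO without a drug. Every group was kept for 24 h, grew with hIL-2 at 20 ng/mL, and held as much DMSO as the combination did. Romidepsin is an inhibitor of histone deacetylases, and afatinib binds covalently to the kinases of the ERBB receptor family. The study asked how the drugs act in synergy, in a single cell line.

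The BCL2 family controls the mitochondrial route to apoptosis. The effectors BAX and BAK (BAK1) open the outer membrane of the mitochondrion and let cytochrome c out, and the pro-survival proteins BCL2, BCL-XL (BCL2L1) and MCL1 hold them back. BH3-only proteins, among them BIM (BCL2L11), BMF, PUMA (BBC3), NOXA (PMAIP1) and BID, occupy the groove of the pro-survival proteins or act on the effectors, and NOXA binds mainly MCL1. Lymphoid cells depend on this balance for their survival, and withdrawal of cytokines such as interleukin-2 is a well known trigger of BIM in T cells. Many of these proteins are also set by phosphorylation, cleavage or degradation, which RNA does not show.

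Libraries held 8972228 to 12696653 counts, so 3 counts, taken as the limit of detection, corresponded to 0.229 to 0.344 CPM (normalised read counts, scaled to library size with TMM factors). This limit covers counting error only. Of 12 T cell markers, 7 averaged at least 5 CPM (IL2RA, ZAP70, CD2, CD247, CD3G, CD3D and CD8A), while CD3E, CD4, CD5, CD7 and LCK had at most 5 counts in any library. The summed level of the T cell markers was 410.1 to 441.5 CPM in the combination, 636 to 669 in romidepsin, 1439 to 1485 in afatinib and 1923 to 1996 in DMSO. KRT5, a keratin of basal keratinocytes, had 43 counts in combination replicate 1, 126 in afatinib replicate 3, 59 in DMSO replicate 1 and 94 in DMSO replicate 2, against at most 1 elsewhere, and results that lose a call without these 4 libraries are named beside their values. Without them DMSO replicate 3 is the only DMSO library, so a lost call does not separate KRT5 reads from the loss of libraries. The summed level of 5 keratinocyte markers, most of it KRT10, was 71.0 to 80.2 CPM in the combination, 43.2 to 46.6 in romidepsin, 63.8 to 89.3 in afatinib and 38.8 to 59.6 in DMSO. Of the listed markers of B cells, keratinocytes and fibroblasts, MS4A1, KRT1 and DCN had no count in any library. The summed level of 3 fibroblast markers, nearly all of it COL1A1, was 8.79 to 9.38 CPM in the combination, 12.6 to 18.5 in romidepsin, 53.96 to 55.2 in afatinib and 109 to 136 in DMSO. That of 3 myeloid markers, most of it ITGAM, was 7.03 to 7.94 CPM in the combination, 7.18 to 10.4 in romidepsin, 28.1 to 29.3 in afatinib and 22.8 to 29.1 in DMSO, and that of 3 B cell markers stayed between 1.61 and 5.76 CPM in all libraries. The part of these markers in the results on the members was not tested. Nothing in the labels tells if libraries of one group were separate cultures, so p-values measure the spread between these libraries, which may be technical. In bulk RNA, fewer cells of one kind and less RNA per cell cannot be told apart.

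The members were expressed at very different levels, which are compared here per kilobase of gene (RPKM). PMAIP1 was the highest in every group, at 475 ± 28.1 RPKM in the combination, 315 ± 14.8 in romidepsin, 228 ± 4.92 in afatinib and 172 ± 7.66 in DMSO (SD, n = 3 each). In DMSO it was followed by BCL2L1 at 92.9 ± 2.66 RPKM, MCL1 at 76.7 ± 2.13, BAX at 56.0 ± 0.747 and BAK1 at 26.7 ± 2.24. BBC3, BID, BCL2 and BMF lay between 5.34 and 1.42 RPKM in DMSO, and BCL2L11 was last at 0.306 ± 0.0310. The only neighbours in the DMSO order whose libraries overlapped were BCL2 and BMF. In afatinib the order began in the same way, but BCL2L1 at 68.6 ± 2.30 RPKM and MCL1 at 64.4 ± 2.07 RPKM overlapped, and BCL2 stood at 3.24 RPKM, above BID at 2.31 and BMF at 0.762.

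The romidepsin and combination libraries shared another order, with no overlap between neighbours. After PMAIP1 came MCL1 at 137 RPKM in the combination and 127 in romidepsin, then BAK1 at 38.3 in the combination and 33.3 in romidepsin, BCL2L1, BAX, BMF, BBC3, BCL2L11, BCL2 and BID. BMF stood at 11.3 RPKM in the combination and 11.2 in romidepsin, and BCL2L11 at 4.59 RPKM in the combination and 4.39 in romidepsin. BID was last, at 1.34 RPKM in the combination and 1.11 in romidepsin. The place of BCL2L1 depends on its length: 43% of its exon bases are shared with ABALON, a gene on the opposite strand, and the deposited counting leaves out reads that fall on more than 1 gene. Divided by its unshared bases, BCL2L1 stood at 41.9 RPKM in the combination, 45.5 in romidepsin, 120.2 in afatinib and 163 in DMSO. By group means this puts it above BAK1 in every group and above MCL1 in afatinib and DMSO. BAK1 shares 4.11% of its own exon bases. With each gene divided by its unshared bases, the combination had 41.9 ± 1.37 RPKM for BCL2L1 and 39.95 ± 1.71 for BAK1 (SD). These spreads overlap, so the order of BCL2L1 and BAK1 is not settled in the combination. In romidepsin BAK1 stood at 34.8 RPKM on this basis.

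**Figure D1:**
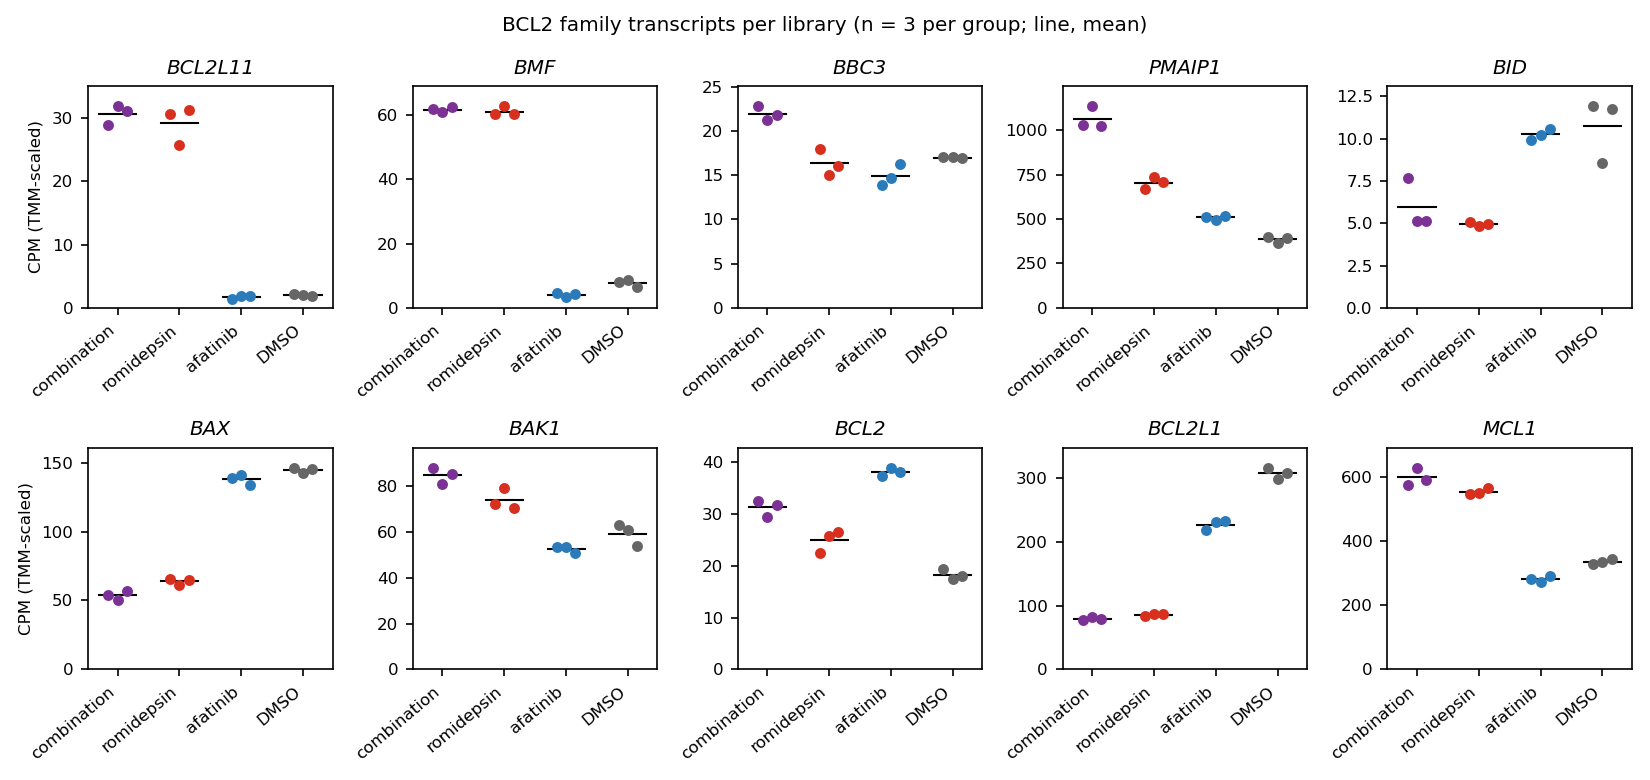
Normalised level of each of the 10 members in all 12 libraries, in CPM on a linear axis from 0, with 1 panel per gene and the groups combination, romidepsin, afatinib and DMSO from left to right; points are libraries and bars are group means. BCL2L11 lies at 25.7 to 31.9 CPM in the combination and romidepsin libraries and at 1.38 to 2.25 CPM in the afatinib and DMSO libraries.

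Against DMSO, all 10 members changed in the combination (edgeR's quasi-likelihood test, Benjamini-Hochberg adjusted p below 0.05), 7 higher and 3 lower, where 74.3% of all tested genes passed, 37.2% higher and 37.1% lower. Romidepsin alone changed 9, 6 higher and 3 lower, against 62.6% of all tested genes, 31.1% higher and 31.5% lower. Afatinib alone changed 5, 2 higher and 3 lower, against 45.4% of all tested genes, 22.0% higher and 23.3% lower. That even split under afatinib depends on scaling beyond library size. With TMM factors 3571 genes were higher and 3780 lower, and with DESeq2's size factors 3516 and 3830. With library size only, 4606 were higher and 2803 lower. The combination differed from romidepsin in 5 members, 4 higher and 1 lower (background 54.3%, 25.1% higher and 29.2% lower), and from afatinib in all 10, 6 higher and 4 lower (background 69.2%, 33.4% higher and 35.8% lower). Without romidepsin replicate 1, 3 members differed between the combination and romidepsin. With so large a share of the transcriptome changed, the counts alone do not set the family apart, and the sizes of the changes are described below gene by gene. The median log2 fold change over the 10 members was 0.65 for the combination, 0.38 for romidepsin and -0.18 for afatinib, each against DMSO, where the median over all tested genes was -0.005 for the combination, -0.0025 for romidepsin and 0.0016 for afatinib. These 3 comparisons share the DMSO libraries. The libraries of the groups did not overlap for 10 members between combination and DMSO (74.8% of all tested genes), 9 between romidepsin and DMSO (64.7%), 8 between afatinib and DMSO (52.7%), 8 between combination and romidepsin (59.1%) and 10 between combination and afatinib (72.2%).

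**Figure D2:**
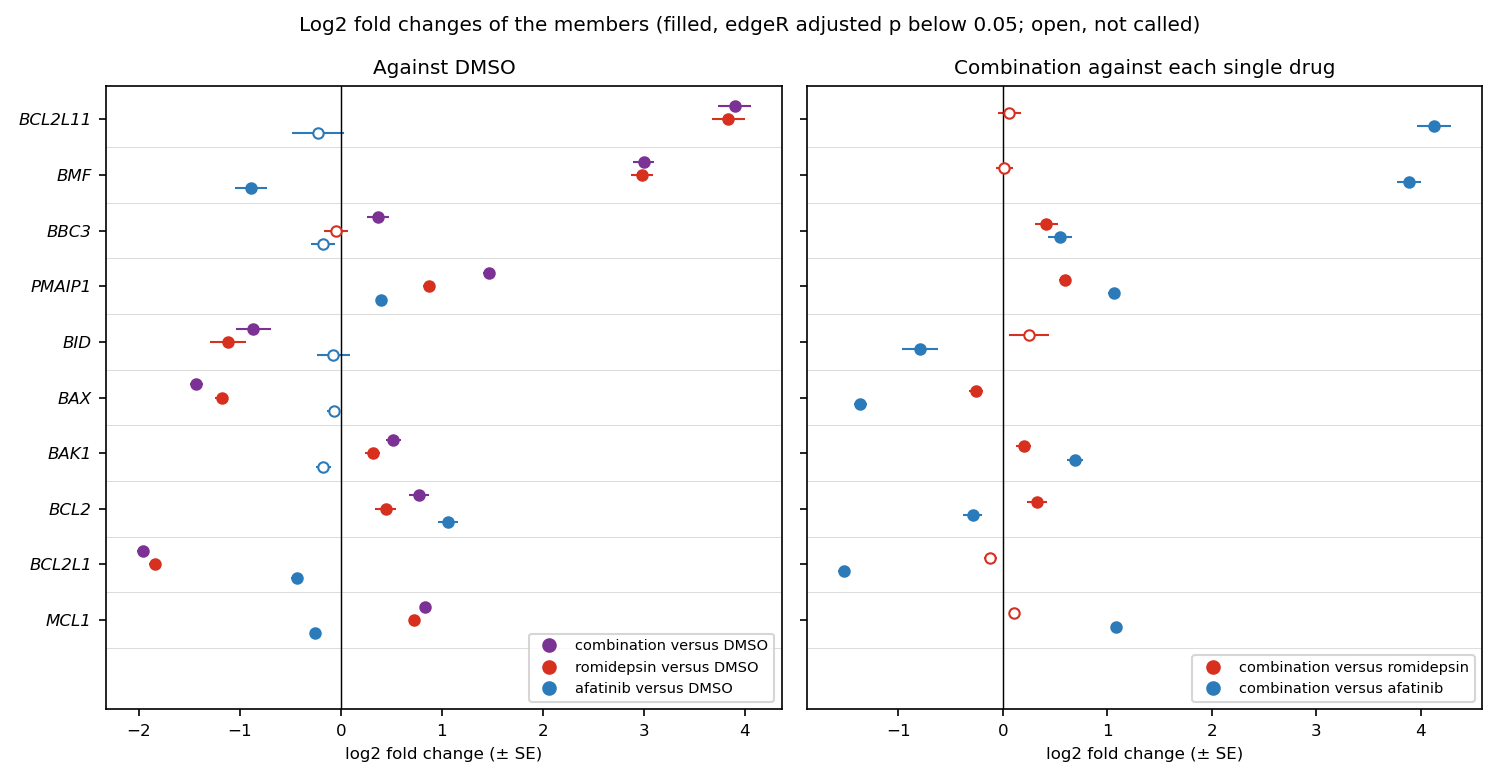
Log2 fold changes of the 10 members with their standard errors, against DMSO on the left (combination, romidepsin and afatinib) and for the combination against each single drug on the right; filled points have an edgeR adjusted p below 0.05 and open points do not. BCL2L11 and BMF lie at 3.90 and 3.00 for the combination and at 3.84 and 2.98 for romidepsin, and BCL2L1 lies at -1.96 and -1.84.

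The largest changes of the family were those of the BH3-only genes BCL2L11 and BMF, which rose with romidepsin and with the combination. BCL2L11 encodes BIM, which binds every pro-survival member, and lies on chromosome 2 at 111119378 to 111168445 of GRCh38 (plus strand). BMF encodes a BH3-only protein that is held on myosin motors by a dynein light chain, and lies on chromosome 15 at 40087890 to 40108892 (minus strand). PMAIP1, which encodes NOXA, lies on chromosome 18 at 59899948 to 59904306 (plus strand) and is the BH3-only gene that rose in all 3 drug groups. The stretches upstream of these 3 genes are shown because their transcripts moved the most, in the combination, among the members that rose. They come from RefSeq (GRCh38.p14), hold up to 250 bases before a start with bases of annotated exons left out, and run 5′ to 3′ on the strand of the gene. The BCL2L11 stretch ends at a RefSeq start that lies inside the gene as the count table gives it, in none of its exons. Capitals mark matches on either strand to motifs of known factors. The GC box, the site of SP1, was searched as GGGCGG. The box bound by NF-Y was searched as CCAAT. The core of the cAMP response element (CRE core), which ATF factors bind, was searched as TGACG. The motif of FOXO factors was searched as GTAAACA.
BCL2L11, chr2:111120664-111120913: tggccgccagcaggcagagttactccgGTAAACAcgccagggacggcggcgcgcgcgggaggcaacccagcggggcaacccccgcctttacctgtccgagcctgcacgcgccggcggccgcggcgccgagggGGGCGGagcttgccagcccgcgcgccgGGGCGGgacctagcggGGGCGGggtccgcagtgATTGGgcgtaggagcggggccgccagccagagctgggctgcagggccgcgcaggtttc
BMF, chr15:40108893-40109129: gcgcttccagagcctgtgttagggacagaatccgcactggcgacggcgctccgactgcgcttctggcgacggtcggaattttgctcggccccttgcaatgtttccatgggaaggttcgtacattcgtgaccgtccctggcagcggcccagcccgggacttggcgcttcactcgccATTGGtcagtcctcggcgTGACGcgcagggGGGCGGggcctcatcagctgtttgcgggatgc
PMAIP1, chr18:59899746-59899947: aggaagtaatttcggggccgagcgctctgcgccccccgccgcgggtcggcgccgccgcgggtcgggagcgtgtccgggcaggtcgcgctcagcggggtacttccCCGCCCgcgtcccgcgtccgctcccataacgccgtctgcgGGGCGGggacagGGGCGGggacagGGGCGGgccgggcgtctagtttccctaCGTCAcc
The BCL2L11 stretch holds 3 GC boxes, at 118, 91 and 75 bases before the start, a CCAAT box at 58 and a FOXO motif at 223. The BMF stretch holds 1 GC box at 45, a CRE core at 57 and a CCAAT box at 75. RefSeq gives BMF another start, inside the gene, whose window holds none of the motifs searched. The PMAIP1 stretch holds 4 GC boxes, at 146, 106, 94 and 82, and a CRE core at 55. Among 35116 promoter windows of 250 bases, 42.6% held a GC box, 32.0% a CCAAT box, 21.2% a CRE core and 2.98% the FOXO motif. No E-box (CACGTG, in 6.34% of windows) and no TGATGNAA (in 3.14%) stood in the 3 stretches. Over the full 250 bases before each start, with exon bases kept, the GC content was 76.8% for BCL2L11, 65.2% for BMF and 72.8% for PMAIP1. The median over all windows was 58.0%. A match describes letters and not a bound site.

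BCL2L11 had 28.8, 31.9 and 31.02 CPM in the combination libraries, 30.6, 25.7 and 31.3 in romidepsin, 1.38, 1.89 and 1.93 in afatinib and 2.25, 2.02 and 1.84 in DMSO. The 6 libraries with romidepsin lay above the 6 without it, and the combination and romidepsin libraries overlapped, as did afatinib and DMSO. Against DMSO, BCL2L11 rose 14.9-fold in the combination (log2 3.90 ± 0.16, SE; adjusted p = 1.10e-26) and 14.3-fold in romidepsin (log2 3.84 ± 0.16; adjusted p = 9.02e-26). Of all tested genes, 1.97% in the combination and 1.31% in romidepsin changed at least as much in either direction. The base of these folds is thin, since BCL2L11 had 15 to 24 counts per library in afatinib and 20 to 27 in DMSO, against 320 to 417 in the combination and 224 to 384 in romidepsin. Afatinib did not change BCL2L11 beyond the spread (log2 -0.23 ± 0.26, 95% interval -0.75 to 0.30; adjusted p = 0.508), nor did its addition to romidepsin (log2 0.06 ± 0.11, interval -0.16 to 0.28; adjusted p = 0.656). Of its exon bases, 10.9% are shared with MIR4435-2HG and give no counts.

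BMF had 61.8, 61.0 and 62.5 CPM in the combination libraries, 60.3, 62.8 and 60.2 in romidepsin, 4.70, 3.41 and 4.34 in afatinib and 8.004, 8.78 and 6.48 in DMSO. All afatinib libraries were below all DMSO libraries, and the libraries with romidepsin lay between 60.2 and 62.8 CPM. Against DMSO, BMF rose 7.98-fold in the combination (log2 3.00 ± 0.11; adjusted p = 3.63e-29) and 7.89-fold in romidepsin (log2 2.98 ± 0.11; adjusted p = 1.76e-28). Afatinib alone lowered it (log2 -0.89 ± 0.16; adjusted p = 7.28e-06). This call was lost without the 4 libraries that hold KRT5 reads (log2 -0.64, with DMSO replicate 3 as the only DMSO library). On top of romidepsin, afatinib gave a log2 difference of 0.02 ± 0.08 (interval -0.15 to 0.18; adjusted p = 0.884). Whether this differs from the change that afatinib gave alone is the interaction described below.

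PMAIP1 rose with each treatment, as BCL2 did. It had 1026, 1135 and 1025 CPM in the combination libraries, 669, 735 and 706 in romidepsin, 512, 496 and 517 in afatinib and 397, 366 and 393 in DMSO, and no library of a group overlapped with another group. Against DMSO the log2 change was 1.46 ± 0.06 in the combination (adjusted p = 2.74e-28), 0.87 ± 0.05 in romidepsin (adjusted p = 3.68e-19) and 0.40 ± 0.05 in afatinib (adjusted p = 3.18e-08). The combination stood 1.51-fold above romidepsin (adjusted p = 2.72e-13) and 2.09-fold above afatinib (adjusted p = 7.86e-23).

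BBC3 rose in the combination, and its differences from DMSO under the single drugs did not pass the test. BBC3 encodes PUMA, is a direct target of FOXO factors, and lies on chromosome 19 at 47220822 to 47232766 (minus strand). It had 22.8, 21.2 and 21.8 CPM in the combination libraries, 17.96, 15.01 and 16.1 in romidepsin, 13.9, 14.7 and 16.3 in afatinib and 17.01, 17.1 and 16.9 in DMSO. Each of the 3 combination libraries was above every other library. The combination was above DMSO (log2 0.37 ± 0.11; adjusted p = 0.00334), above romidepsin (log2 0.42 ± 0.11; adjusted p = 0.00173) and above afatinib (log2 0.55 ± 0.11; adjusted p = 3.87e-05). Romidepsin gave a log2 difference of -0.05 (interval -0.29 to 0.19; adjusted p = 0.728) and afatinib one of -0.18 (interval -0.42 to 0.06; adjusted p = 0.223).

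BID, which caspase-8 cuts to link death receptors to the mitochondrion, lies on chromosome 22 at 17734138 to 17774770 (minus strand) and went the other way. It had 7.66, 5.12 and 5.12 CPM in the combination libraries, 5.07, 4.81 and 4.98 in romidepsin, 9.95, 10.2 and 10.6 in afatinib and 11.9, 8.58 and 11.7 in DMSO. The combination and romidepsin libraries were all below the afatinib and DMSO libraries, and combination replicate 1 was the highest of the libraries with romidepsin. BID fell in the combination (log2 -0.87 ± 0.17; adjusted p = 1.42e-05) and in romidepsin (log2 -1.12 ± 0.18; adjusted p = 4.28e-07), and with afatinib the difference was -0.07 (interval -0.40 to 0.25; adjusted p = 0.745). Of the 5 BH3-only genes, 4 were higher and 1 lower in the combination, where 37.2% of all tested genes were higher and 37.1% lower. In romidepsin 3 were higher and 1 lower (31.1% and 31.5% of all tested genes), and in afatinib 1 was higher and 1 lower (22.0% and 23.3%), each against DMSO.

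The effector genes moved in opposite directions. BAX lies on chromosome 19 at 48954815 to 48961798 (plus strand) and BAK1 on chromosome 6 at 33572547 to 33580293 (minus strand). BAX had 53.6, 50.3 and 57.1 CPM in the combination libraries, 65.9, 61.1 and 64.7 in romidepsin, 139, 141 and 134 in afatinib and 146, 143 and 146 in DMSO. Its libraries with romidepsin spanned 50.3 to 65.9 CPM and those without it 134 to 146 CPM, and the combination libraries were below the romidepsin libraries. BAX fell to 0.370 of its DMSO level in the combination (log2 -1.43 ± 0.07; adjusted p = 9.79e-25) and to 0.442 in romidepsin (log2 -1.18 ± 0.07; adjusted p = 3.92e-21). It was lower in the combination than in romidepsin (log2 -0.25 ± 0.07; adjusted p = 0.00179). Afatinib alone gave -0.07 (interval -0.20 to 0.05; adjusted p = 0.365).

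BAK1 had 88.0, 80.8 and 85.4 CPM in the combination libraries, 72.0, 78.9 and 70.3 in romidepsin, 53.3, 53.3 and 50.8 in afatinib and 63.1, 60.8 and 53.6 in DMSO. The romidepsin libraries and the combination libraries lay above those of afatinib and DMSO. BAK1 rose in the combination (log2 0.52 ± 0.07; adjusted p = 1.91e-08) and in romidepsin (log2 0.31 ± 0.07; adjusted p = 2.69e-04), and with afatinib the difference was -0.17 (adjusted p = 0.0571), or 0.03 without the 4 KRT5 libraries. The combination was above romidepsin (log2 0.20 ± 0.07; adjusted p = 0.0156), but this call was lost without combination replicate 1, romidepsin replicate 1 or romidepsin replicate 3 (adjusted p = 0.0789, 0.0671 and 0.112). The RPKM ratio of BAX to BAK1 was 0.541 ± 0.0264 in the combination, 0.744 ± 0.0711 in romidepsin, 2.25 ± 0.0164 in afatinib and 2.10 ± 0.189 in DMSO (SD, n = 3 each), so the more abundant of the effector transcripts was BAK1 in the groups with romidepsin and BAX in the groups without it.

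Among the pro-survival genes, BCL2L1 fell and MCL1 rose under romidepsin, and BCL2 rose under every treatment. BCL2L1 encodes BCL-XL, lies on chromosome 20 at 31664452 to 31723989 (minus strand) and had 76.9, 82.0 and 78.5 CPM in the combination libraries, 84.5, 86.5 and 87.0 in romidepsin, 219, 231 and 233 in afatinib and 317, 299 and 308 in DMSO. No groups overlapped, and the combination libraries were the lowest. Against DMSO, BCL2L1 fell to 0.257 of its level in the combination (log2 -1.96 ± 0.06; adjusted p = 4.02e-32), to 0.279 in romidepsin (log2 -1.84 ± 0.06; adjusted p = 1.70e-30) and to 0.738 in afatinib (log2 -0.44 ± 0.06; adjusted p = 5.60e-09). The difference between combination and romidepsin did not pass (log2 -0.12 ± 0.06, interval -0.24 to 0.0048; adjusted p = 0.0985). ABALON, the antisense gene over BCL2L1, had 22 to 68 counts per library, or 2.29 CPM in the combination, 5.80 in romidepsin, 2.39 in afatinib and 4.33 in DMSO, and since the counting used no strand, read pairs in the stretch that both genes share were given to neither.

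MCL1 lies on chromosome 1 at 150574551 to 150579738 (minus strand), and its product turns over fast. It had 575, 629 and 591 CPM in the combination libraries, 548, 550.1 and 564 in romidepsin, 282, 272 and 290.4 in afatinib and 327, 334 and 346 in DMSO. The libraries with romidepsin spanned 548 to 629 CPM, those of afatinib were the lowest, and none of the afatinib libraries reached a DMSO library. MCL1 rose 1.78-fold in the combination (log2 0.83 ± 0.05; adjusted p = 1.71e-19) and 1.65-fold in romidepsin (log2 0.72 ± 0.05; adjusted p = 6.89e-17), and fell with afatinib alone (log2 -0.25 ± 0.05; adjusted p = 1.01e-04). Between the combination and romidepsin the log2 difference of 0.11 ± 0.05 missed the threshold (adjusted p = 0.0660), and it passed under other size factors, in DESeq2's Wald test and without the KRT5 libraries (adjusted p = 0.0256, 0.0087 and 0.0228).

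BCL2, the founding member and the target of venetoclax, lies on chromosome 18 at 63123346 to 63320128 (minus strand). It had 32.5, 29.5 and 31.8 CPM in the combination libraries, 22.4, 25.8 and 26.5 in romidepsin, 37.3, 38.9 and 38.1 in afatinib and 19.4, 17.4 and 17.96 in DMSO. Here the afatinib libraries were the highest and the DMSO libraries the lowest, with no overlap between any groups. BCL2 rose 1.71-fold in the combination (log2 0.77 ± 0.10; adjusted p = 1.93e-09), 1.36-fold in romidepsin (log2 0.44 ± 0.10; adjusted p = 2.15e-04) and 2.08-fold in afatinib (log2 1.06 ± 0.10; adjusted p = 1.20e-12). The combination lay above romidepsin (log2 0.33 ± 0.10; adjusted p = 0.00352) and below afatinib (log2 -0.29 ± 0.09; adjusted p = 0.00521), and the first of these calls was lost without romidepsin replicate 1 (log2 0.25, adjusted p = 0.0532). Its level stayed low beside the other pro-survival genes, at 2.66 RPKM in the combination, 2.12 in romidepsin, 3.24 in afatinib and 1.55 in DMSO.

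The make-up of the pro-survival transcripts differed between the groups. BCL2, BCL2L1 and MCL1 together held 163 ± 7.003 RPKM in the combination, 155 ± 2.54 RPKM in romidepsin, 136 ± 3.28 RPKM in afatinib and 171 ± 2.83 RPKM in DMSO (SD, n = 3 each). MCL1 made up 83.8% in the combination, 81.9% in romidepsin, 47.3% in afatinib and 44.8% in DMSO of this sum, and BCL2L1 made up 14.6% in the combination, 16.8% in romidepsin, 50.3% in afatinib and 54.3% in DMSO. BCL2 never exceeded 2.38% on average, its share in afatinib. With each gene divided by its unshared bases, the sums were 181 RPKM in the combination, 174 in romidepsin, 188 in afatinib and 241 in DMSO. Without division by length they were 709 CPM in the combination, 665 in romidepsin, 547 in afatinib and 661 in DMSO. The order of the groups in this sum thus depends on the length used. With unshared bases MCL1 made up 75.5% in the combination, 72.7% in romidepsin, 34.3% in afatinib and 31.8% in DMSO. The RPKM ratio of MCL1 to BCL2L1 was 5.73 ± 0.0782 in the combination, 4.88 ± 0.0543 in romidepsin, 0.940 ± 0.0413 in afatinib and 0.827 ± 0.0376 in DMSO. With BCL2L1 divided by its unshared bases the ratio was 3.27 in the combination, 2.79 in romidepsin, 0.536 in afatinib and 0.472 in DMSO, so MCL1 exceeded BCL2L1 in the groups with romidepsin and was below it in those without, under both lengths.

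**Figure D3:**
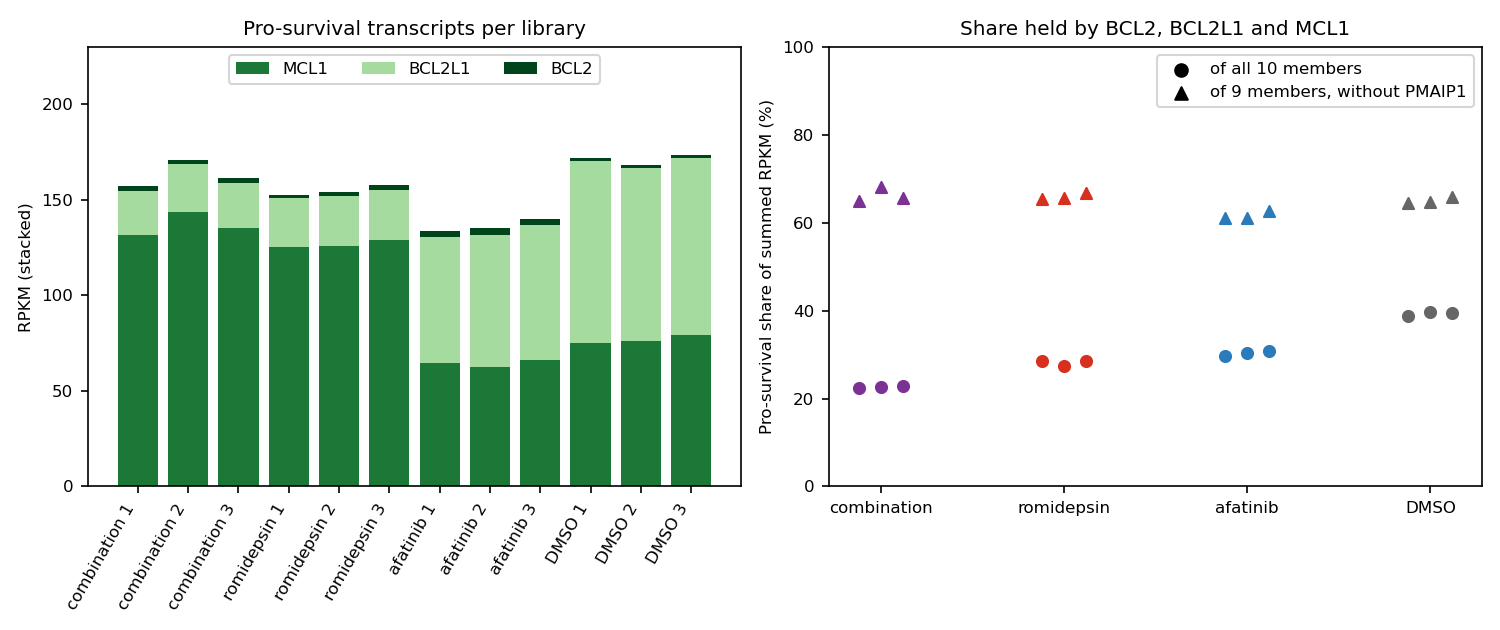
Left, stacked bars of the RPKM of MCL1, BCL2L1 and BCL2 in each library; right, the percentage of the summed RPKM that these genes hold in each library, of all 10 members (circles) or without PMAIP1 (triangles), with the groups combination, romidepsin, afatinib and DMSO from left to right. The share of all 10 averages 22.6% in the combination, 28.2% in romidepsin, 30.3% in afatinib and 39.3% in DMSO.

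Of the summed level per length of all 10 members, the pro-survival genes held 22.6 ± 0.255% in the combination, 28.2 ± 0.728% in romidepsin, 30.3 ± 0.500% in afatinib and 39.3 ± 0.517% in DMSO (SD, n = 3 each). The order of the groups was the same without division by length (34.9% in the combination, 41.1% in romidepsin, 42.8% in afatinib and 51.4% in DMSO) and with the unshared bases (24.4% in the combination, 30.5% in romidepsin, 37.4% in afatinib and 47.6% in DMSO). This share followed PMAIP1, which alone held 65.8% in the combination, 57.3% in romidepsin, 50.7% in afatinib and 39.5% in DMSO of the summed level. Without PMAIP1 the pro-survival share was 66.2 ± 1.74% in the combination, 66.0 ± 0.644% in romidepsin, 61.6 ± 0.990% in afatinib and 65.0 ± 0.759% in DMSO. With the unshared bases these shares were 67.7% in the combination, 67.7% in romidepsin, 68.5% in afatinib and 72.0% in DMSO, so their order depends on the length used. The RPKM ratio of PMAIP1 to MCL1, the partner that NOXA binds, was 3.47 ± 0.0715 in the combination, 2.48 ± 0.117 in romidepsin, 3.53 ± 0.0442 in afatinib and 2.25 ± 0.116 in DMSO. These sums are descriptions of RNA, in which 1 gene can outweigh all the others, and are not amounts of protein.

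Because the study asked about synergy, the change in the combination was set against the sum of the single-drug changes on the log2 scale. The difference, the interaction, is also the effect of afatinib with romidepsin minus its effect without it. It passed the test for 7 members, 6 positive and 1 negative, where 30.2% of all tested genes passed, 11.7% positive and 18.5% negative. BMF had an interaction of 0.91 ± 0.18 (adjusted p = 7.91e-05): the single-drug changes add up to 2.09, and the combination gave 3.00. Afatinib moved BMF by 0.02 with romidepsin and by -0.89 without it, and BMF averaged 61.7 CPM in the combination and 61.1 in romidepsin. BBC3 had 0.60 ± 0.16 (adjusted p = 0.00395), with a sum of -0.23 against 0.37 in the combination. BAK1 had 0.38 ± 0.11 (adjusted p = 0.00439), MCL1 0.36 ± 0.07 (adjusted p = 1.24e-04) and BCL2L1 0.32 ± 0.08 (adjusted p = 0.00235).

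For MCL1 the positive interaction goes with a fall under afatinib alone and a difference of 0.11 when afatinib was added to romidepsin. For BCL2L1 the fall in the combination, -1.96, was smaller than the sum of -2.28. BCL2 had the negative interaction, -0.73 ± 0.14 (adjusted p = 4.16e-05): afatinib raised it by 1.06 without romidepsin and by 0.33 with it. PMAIP1 was at the threshold, with 0.19 ± 0.08 (adjusted p = 0.0491), and lost the call when any of 9 single libraries was left out. BCL2L11 (0.29 ± 0.28, adjusted p = 0.483), BAX (-0.18 ± 0.09, adjusted p = 0.139) and BID (0.33 ± 0.25, adjusted p = 0.354) did not pass, with intervals of -0.28 to 0.86, -0.37 to 0.01 and -0.18 to 0.83. Leaving out the 4 libraries that hold KRT5 reads keeps only DMSO replicate 3 in the DMSO group. The interaction was then 0.68 for BMF, 0.17 for BAK1 and 0.25 for PMAIP1, and these calls were lost.

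**Figure D4:**
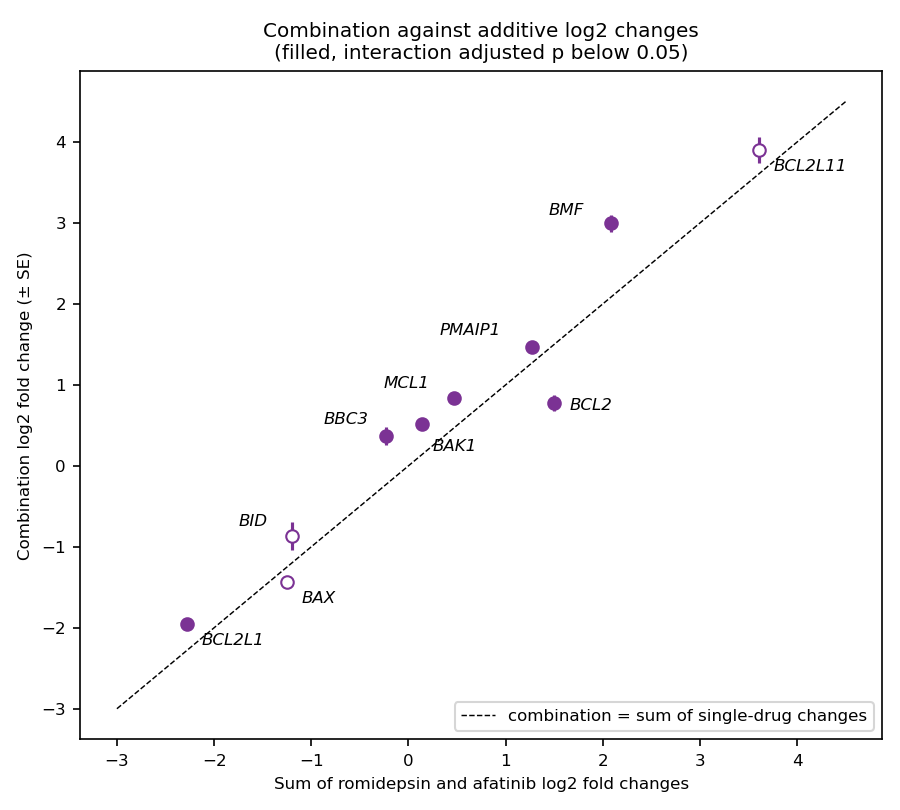
Log2 fold change of each member in the combination against DMSO (vertical axis, with its standard error) set against the sum of its romidepsin and afatinib changes (horizontal axis); filled points have an interaction with an edgeR adjusted p below 0.05, and the dashed line is additivity. BMF lies above the line, at 3.00 against a sum of 2.09, and BCL2 below it, at 0.77 against 1.504.

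The rest of the family was taken from a list of 13 further genes, of which 9 were tested. BIK, HRK, BCL2L10 and BCL2L14 had too few counts, and the highest was BIK with 8 to 17 counts per library in the combination. In the combination 3 of the 9 rose and 2 fell, in romidepsin 3 rose and 2 fell, and in afatinib 2 rose and 3 fell, each against DMSO. Of all tested genes, 74.3% changed in the combination, 62.6% in romidepsin and 45.4% in afatinib. Their median log2 fold change was 0.73 in the combination, 0.08 in romidepsin and -0.05 in afatinib. BNIP3L, a mitophagy receptor also called NIX, averaged 76.4 ± 4.35 CPM in the combination, 99.4 ± 13.1 in romidepsin, 20.2 ± 1.52 in afatinib and 32.0 ± 3.69 in DMSO. It rose in the combination (log2 1.25 ± 0.09) and romidepsin (log2 1.62 ± 0.09) and fell in afatinib (log2 -0.67 ± 0.10), with adjusted p = 1.47e-17, 1.71e-21 and 3.76e-07. Its relative BNIP3 did likewise, with log2 changes of 0.77 in the combination, 0.74 in romidepsin and -0.56 in afatinib (adjusted p = 1.25e-05, 3.59e-05 and 0.00680), although the call under afatinib was lost without the 4 KRT5 libraries (log2 -0.50).

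BCL2L2, which encodes the pro-survival protein BCL-W, went down in the combination (log2 -0.92 ± 0.10; adjusted p = 4.46e-11) and romidepsin (log2 -0.90 ± 0.10; adjusted p = 2.35e-10) and up in afatinib (log2 0.47 ± 0.09; adjusted p = 4.82e-05). It averaged 19.5 ± 2.44 CPM in the combination, 19.8 ± 1.84 in romidepsin, 51.0 ± 1.96 in afatinib and 36.6 ± 4.37 in DMSO, and 24.3% of its exon bases are shared with other genes. BCL2L13, another mitophagy receptor, had the same signs, at -0.68 in the combination, -0.44 in romidepsin and 0.48 in afatinib (adjusted p = 1.38e-12, 1.88e-07 and 2.04e-08). BCL2L12 was higher in the combination than in DMSO (log2 0.73 ± 0.11; adjusted p = 7.46e-08) and than in romidepsin (log2 0.66 ± 0.11; adjusted p = 1.72e-06), was lower in afatinib than in DMSO (log2 -0.44 ± 0.12; adjusted p = 0.00274), and had an interaction of 1.09 ± 0.16 (adjusted p = 6.54e-07); 33.1% of its exon bases overlap IRF3. BAD, a BH3-only gene, stayed between 12.7 and 13.6 CPM on average in the 4 groups and passed no test. GPR137 shares 23.7% of the exon bases of BAD. BCL2A1, a pro-survival gene induced by NF-kB, averaged 0.759 CPM in the combination, 1.59 in romidepsin, 0.671 in afatinib and 0.454 in DMSO and rose in romidepsin (log2 1.89 ± 0.58; adjusted p = 0.00432), a call that was lost without DMSO replicate 3 (log2 1.29, adjusted p = 0.0518). BOK and BCL2L15 passed only between the combination and afatinib, at -1.24 and 1.42 (adjusted p = 0.0215 and 0.0211). Both of these calls were lost without combination replicate 1 and without the 4 KRT5 libraries. That of BOK was lost also without combination replicate 3 or afatinib replicate 2, and that of BCL2L15 without combination replicate 2 or afatinib replicate 3.

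Genes that act on the family's transcripts were read from a list of 21 transcriptional regulators, 20 of them tested. In the combination 11 rose and 7 fell, in romidepsin 9 rose and 7 fell, and in afatinib 9 rose and 7 fell, each against DMSO. These counts stand beside 74.3% of all tested genes changed in the combination, 62.6% in romidepsin and 45.4% in afatinib. Their median log2 fold change was 0.25 in the combination, 0.11 in romidepsin and 0.13 in afatinib. The stress factor DDIT3 (CHOP), which can raise BCL2L11 and BBC3, averaged 93.2 ± 1.84 CPM in the combination, 4.99 ± 0.743 in romidepsin, 48.5 ± 2.39 in afatinib and 5.47 ± 0.840 in DMSO. It rose in the combination (log2 4.10 ± 0.11) and in afatinib (log2 3.15 ± 0.11), with adjusted p = 2.51e-34 and 1.36e-27, and its difference in romidepsin was -0.15 (adjusted p = 0.456). ATF3 rose in all 3, by 2.99 in the combination, 1.59 in romidepsin and 1.84 in afatinib (adjusted p = 4.77e-37, 2.60e-25 and 2.95e-27). ATF4, which drives PMAIP1 in stressed cells, averaged 1871 CPM in the combination, 912 in romidepsin, 2298 in afatinib and 1300 in DMSO. ATF4 was thus highest in afatinib and lowest in romidepsin, and PMAIP1 highest in the combination and lowest in DMSO. ATF4 was higher in the combination than in romidepsin (log2 1.04 ± 0.05; adjusted p = 1.39e-22), as was CEBPB (log2 1.28 ± 0.12; adjusted p = 1.60e-12).

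STAT5A, a factor downstream of the interleukin-2 receptor that drives BCL2L1, averaged 151 ± 7.53 CPM in the combination, 224 ± 8.81 in romidepsin, 435 ± 3.54 in afatinib and 564 ± 6.18 in DMSO. It fell in the combination (log2 -1.90 ± 0.06; adjusted p = 7.36e-33), in romidepsin (log2 -1.33 ± 0.05; adjusted p = 1.68e-26) and in afatinib (log2 -0.38 ± 0.05; adjusted p = 5.45e-08). STAT3, which is known to drive MCL1, rose in the combination (log2 1.91 ± 0.05; adjusted p = 2.04e-33) and in romidepsin (log2 1.97 ± 0.05; adjusted p = 1.75e-33). FOXO4 was higher in the combination than in afatinib (log2 1.61 ± 0.09; adjusted p = 1.40e-20). FOXO3 went the other way, at 93.2 CPM in the combination, 83.7 in romidepsin, 117 in afatinib and 103 in DMSO. FOXO1 averaged 89.0 CPM in the combination, 128 in romidepsin, 73.2 in afatinib and 96.1 in DMSO. EGR1 fell in afatinib (log2 -2.84 ± 0.18; adjusted p = 1.03e-16) and had an interaction of 2.31 ± 0.23 (adjusted p = 1.18e-10). Whether any of these moves acts on a member was not tested.

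Genes that act on the proteins of the family were read from a list of 18 symbols. Of these, 17 stood in the count table, as MARCH5 was listed also as MARCHF5, and 16 were tested. In the combination 9 rose and 3 fell, in romidepsin 9 rose and 1 fell, and in afatinib 3 rose and 4 fell, each against DMSO. The share of all tested genes that changed was 74.3% in the combination, 62.6% in romidepsin and 45.4% in afatinib. Their median log2 fold change was 0.38 in the combination, 0.18 in romidepsin and 0.03 in afatinib. DYNLL2, the dynein light chain that holds BMF, averaged 1253 ± 63.0 CPM in the combination, 688 ± 22.8 in romidepsin, 426 ± 12.4 in afatinib and 421 ± 11.9 in DMSO. It rose in the combination (log2 1.57 ± 0.05; adjusted p = 4.41e-30) and in romidepsin (log2 0.71 ± 0.05; adjusted p = 1.80e-16), with an interaction of 0.85 ± 0.07 (adjusted p = 6.60e-13). DYNLL1, the light chain that holds BIM, fell in afatinib (log2 -0.49 ± 0.07; adjusted p = 4.08e-08) and was higher in the combination than in afatinib (log2 0.91 ± 0.07; adjusted p = 4.49e-17). USP9X, a deubiquitinase that stabilises MCL1, rose by 1.05 in the combination and 1.01 in romidepsin (adjusted p = 7.72e-18 and 8.09e-17). FBXW7, a ubiquitin ligase subunit that targets MCL1 for degradation, rose in the same groups, by 1.16 in the combination and 0.90 in romidepsin (adjusted p = 1.99e-17 and 4.03e-13). HUWE1, another ligase for MCL1, was lower in the combination than in romidepsin (log2 -0.35 ± 0.07; adjusted p = 1.85e-05).

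Downstream of the family, a list of 19 genes covered the apoptosome, the caspases it fires and the proteins that restrain them, and all 19 were tested. In the combination 8 rose and 7 fell, in romidepsin 9 rose and 4 fell, and in afatinib 5 rose and 9 fell, each against DMSO. Over all tested genes the changed share was 74.3% in the combination, 62.6% in romidepsin and 45.4% in afatinib. Their median log2 fold change was 0.03 in the combination, 0.10 in romidepsin and -0.24 in afatinib. CASP9, the caspase of the apoptosome, averaged 43.0 ± 2.23 CPM in the combination, 25.9 ± 2.14 in romidepsin, 15.8 ± 0.668 in afatinib and 12.6 ± 1.54 in DMSO and rose in the combination (log2 1.77 ± 0.11; adjusted p = 4.24e-20), in romidepsin (log2 1.04 ± 0.11; adjusted p = 2.94e-11) and in afatinib (log2 0.33 ± 0.12; adjusted p = 0.0224). The call of CASP9 under afatinib was lost without afatinib replicate 2, without DMSO replicate 3 and with no filter on low counts (adjusted p = 0.0791, 0.155 and 0.0834). APAF1, the scaffold of the apoptosome, rose in the combination (log2 0.55 ± 0.06; adjusted p = 8.04e-11) and in romidepsin (log2 1.12 ± 0.06; adjusted p = 2.69e-21) and fell in afatinib (log2 -0.46 ± 0.07; adjusted p = 1.02e-07). CYCS, which encodes cytochrome c, was higher in the combination than in afatinib (log2 1.15 ± 0.06; adjusted p = 1.69e-22), and its interaction was 0.77 ± 0.08 (adjusted p = 3.66e-10).

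Among inhibitors of apoptosis, BIRC3 rose in romidepsin (log2 1.28 ± 0.06; adjusted p = 1.64e-24), fell in afatinib (log2 -0.66 ± 0.06; adjusted p = 2.63e-13) and was lower in the combination than in romidepsin (log2 -1.25 ± 0.06; adjusted p = 2.31e-23). It averaged 798 CPM in the combination, 1899 in romidepsin, 493 in afatinib and 779 in DMSO, and the combination and DMSO libraries overlapped. BIRC5 (survivin), which is also a mitosis gene, fell in the combination (log2 -1.83 ± 0.06; adjusted p = 8.51e-31), in romidepsin (log2 -0.82 ± 0.06; adjusted p = 1.49e-17) and in afatinib (log2 -0.71 ± 0.06; adjusted p = 1.00e-14). XIAP was lower in the combination than in afatinib (log2 -1.23 ± 0.08; adjusted p = 1.59e-18). DFFB, the caspase-activated nuclease, fell in the combination (log2 -1.28 ± 0.15; adjusted p = 1.72e-10) and in romidepsin (log2 -0.68 ± 0.14; adjusted p = 5.67e-05).

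The genes whose level ran most closely with a member were found for the 3 members with the widest span of group means, among 10032 other genes, as Pearson's r of log2 CPM over the 12 libraries. BCL2L11, with a span of 4.02 on the log2 scale, ran closest to STAT3 (r = 0.9951), KIAA1522 (0.9949) and CALCOCO1 (0.9949). BMF, with a span of 3.85, ran closest to MAP1A (0.9965), RAB3IP (0.9945) and JPT1 (0.9942). BCL2L1, with a span of 1.96, ran closest to TRIM65 (0.9984), CFLAR (0.9966) and UBTF (0.996). The 12 libraries fall into 4 groups that share a treatment, so such values describe a common pattern over the groups and not a relation between single cultures.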

How the data were processed

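The deposited table holds raw counts for 12 libraries. The authors counted read pairs per gene name with featureCounts 2.0.0 and GENCODE 31, ignoring strand and dropping multi-mapping reads, per the file headers. STAR 2.7.9a, GRCh38.p12 and DESeq2 1.38.1 are named in the submitters' processing notes. A second deposited table is named as normalized counts, but its values did not follow the counts (Spearman 0.022 to 0.049 over 13302 genes) and it was not used.

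The deposited counts were filtered with filterByExpr, scaled with TMM and tested in edgeR 4.0.16 (R 4.3.3) by a robust quasi-likelihood fit of 4 group means to the 12 libraries. Tests were two-sided, with p-values adjusted by Benjamini-Hochberg over 16208 genes and called below 0.05. The biological coefficient of variation was 6.13%. CPM uses TMM-scaled library sizes, and RPKM divides CPM by the deposited gene length in kilobases. Log2 CPM for correlations used a prior count of 2. The fit was tested on simulated data.

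The members and lists were chosen with earlier results of these data known. Named genes were all 10 members, the tested genes of a list of other BCL2 family genes, and up to 4 called genes of each list per comparison that changed most at a mean of 5 CPM or more, of which some are not reported here. Alternatives covered scaling, filter, DESeq2 1.42.0, the groups in the fit, a replicate block, each library left out and gene length. Promoters are from RefSeq (GRCh38.p14), where 9 of the 10 members matched.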

Additional observations from a re-analysis of the deposited data

Results flagged for a closer look

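For 7 members the effect of afatinib differed with and without romidepsin by the test of the interaction in edgeR, where 30.2% of all tested genes did. The effect with romidepsin minus that without it was 0.91 for BMF (adjusted p = 7.91e-05), 0.60 for BBC3 (adjusted p = 0.00395), 0.38 for BAK1 (adjusted p = 0.00439), 0.36 for MCL1 (adjusted p = 1.24e-04), 0.32 for BCL2L1 (adjusted p = 0.00235) and 0.19 for PMAIP1 (adjusted p = 0.0491), all on the log2 scale. BCL2 had the negative one, -0.73 (adjusted p = 4.16e-05). Afatinib moved BMF by 0.02 with romidepsin and -0.89 without it, and BCL2 by 0.33 with romidepsin and 1.06 without it. Without the 4 libraries that hold KRT5 reads, DMSO replicate 3 is the only DMSO library. The interactions of BMF (0.68), BAK1 (0.17) and PMAIP1 (0.25) then did not pass, nor did the fall of BMF under afatinib alone (-0.64).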

How the results depend on the processing

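Of the 60 results on members (10 genes in 6 comparisons), 46 passed the threshold, and 6 of these lost it under some alternative. All 10 members kept their calls for the combination against DMSO, and the 9 called for romidepsin against DMSO kept theirs, under every alternative run. In the fit to all libraries VDAC2 was lower in the combination than in DMSO (-0.2043, adjusted p = 0.0188), and the difference turned to 0.0513 without the 4 KRT5 libraries. The other results that turned sign were without a call: BBC3 under romidepsin (-0.1237 to 0.0017 with 1 library left out, 0.0033 without the 4 KRT5 libraries), BID under afatinib (0.0267 with library size only, -0.2068 to 0.0287 with 1 library left out), BAX under afatinib (0.0281 with library size only), BAK1 under afatinib (0.027 without the KRT5 libraries), and, between combination and romidepsin, BCL2L11 (-0.0252 to 0.1045 with 1 library left out) and BMF (-0.0056 to 0.043). The alternative without the 4 libraries with KRT5 reads was chosen after seeing the data. It left 4162 genes called under afatinib, 2164 higher and 1998 lower, against 7351 in all libraries, and 4 members with an interaction against 7; it uses fewer libraries. Leaving out 1 library at a time gave 3 to 6 members called between combination and romidepsin (5 in all libraries), with 3 only without romidepsin replicate 1, 5 to 6 for afatinib and 6 to 7 for the interaction, and no change in the other counts of members. The replicate numbers did not pair the libraries (correlations of deviations -0.09 to 0.089), and with the replicate block the only change among members was PMAIP1, whose interaction of 0.19 lost its call (adjusted p = 0.0637). Without division by length the pro-survival share was 34.9% in the combination, 41.1% in romidepsin, 42.8% in afatinib and 51.4% in DMSO. With unshared exon bases, an alternative also chosen after seeing the data, it was 24.4% in the combination, 30.5% in romidepsin, 37.4% in afatinib and 47.6% in DMSO. Library size only moved the median of all genes under afatinib by 0.10. BAK1 under afatinib gained a call without romidepsin replicate 2 or DMSO replicate 3, and MCL1 gained one between combination and romidepsin under several alternatives. Depth limits BCL2L11 most, with 15 to 27 counts per library in afatinib and DMSO.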
